A study of Mus musculus with 18 samples.

Results

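Pax6, Sox1, Neurod1, Nes, Tubb3, Map2 and Gpm6a are 7 mouse genes of early neural cells and neurons. They were chosen as a group with earlier results of these data known. They were read from the probe set whose platform annotation names the gene alone. Each of the 7 genes had 1 such probe set, and together they are 7 of the 19938 genes tested. Total RNA of mouse stem cell cultures was hybridised to 18 Affymetrix Mouse Gene 1.0 ST arrays in 6 groups of 3. The groups were differentiated adult stem cells and differentiated embryonic stem (ES) cells of the 129SV background, undifferentiated adult and ES cells whose labels name Stra8-EGFP/Rosa26 (Stra8 for short), and undifferentiated adult and ES cells of the 129SV background. The series title calls the adult cells multipotent germline stem cells, and its question is how alike their transcriptome is to that of ES cells. Stra8-EGFP names a green fluorescent reporter of Stra8, a gene switched on in germ cells that respond to retinoic acid, and Rosa26 is a locus that is active in most mouse tissues. How differentiation was induced, for how long, on which culture layer the cells were kept, and how many lines the cultures came from are not given in the sources used here. Replicates are labelled as biological, with no source named, and the p-values describe the scatter of these arrays. Differentiated cells of the Stra8 background were not analysed here.

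Neural induction turns ectoderm into neuroepithelium once bone morphogenetic protein signalling is low. The transcription factors Sox1 and Pax6 mark the neuroepithelium that follows, and Nes (nestin) is the intermediate filament of its dividing progenitors. Neurod1, a basic helix-loop-helix factor, acts as progenitors leave the cell cycle and become neurons, and it also drives endocrine cells of the pancreas, as Pax6 does. Tubb3 is the beta-tubulin isotype of neurons, Map2 binds and stabilises microtubules in dendrites, and Gpm6a is a membrane glycoprotein of the proteolipid family found on neurites. Transcripts of several of these genes are also present outside the nervous system, so a single gene does not define a neural cell.

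The 250 bases before the annotated start are shown for 4 members: Tubb3 and Neurod1, whose levels ran alike over the arrays, Map2, which ran against Pax6, and Gpm6a, which rose mainly on differentiation of adult cells. For Map2 RefSeq uses a start inside the gene's interval, so the last 127 of the 250 bases, with 3 of the 5 GC boxes, lie within the annotated gene. The sequences are from RefSeq, build GRCm38.p6, read 5′ to 3′ on the strand of the gene. Capitals mark the GC box (GGGCGG, either strand) in the first 3 and the octamer (ATGCAAAT, either strand), a motif that POU factors bind, in Gpm6a. The windows are Tubb3 at chr8:123411303-123411552 on the plus strand, Neurod1 at chr2:79456637-79456886 on the minus strand, Map2 at chr1:66175079-66175328 and Gpm6a at chr8:54779184-54779433, both on the plus strand.
Tubb3: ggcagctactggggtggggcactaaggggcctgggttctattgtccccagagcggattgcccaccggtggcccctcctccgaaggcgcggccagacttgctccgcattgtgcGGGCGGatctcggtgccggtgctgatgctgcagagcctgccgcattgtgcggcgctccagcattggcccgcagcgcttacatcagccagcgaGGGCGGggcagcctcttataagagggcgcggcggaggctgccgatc
Neurod1: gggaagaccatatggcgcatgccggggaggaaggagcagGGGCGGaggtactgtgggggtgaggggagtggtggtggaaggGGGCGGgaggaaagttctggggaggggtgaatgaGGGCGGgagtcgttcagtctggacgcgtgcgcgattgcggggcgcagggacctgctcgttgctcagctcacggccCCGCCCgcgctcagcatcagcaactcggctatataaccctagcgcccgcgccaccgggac
Map2: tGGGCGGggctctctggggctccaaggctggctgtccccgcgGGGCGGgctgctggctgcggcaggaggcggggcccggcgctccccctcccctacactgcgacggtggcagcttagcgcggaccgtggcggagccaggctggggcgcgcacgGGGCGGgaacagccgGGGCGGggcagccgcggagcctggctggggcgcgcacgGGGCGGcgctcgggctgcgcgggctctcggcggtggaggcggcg
Gpm6a: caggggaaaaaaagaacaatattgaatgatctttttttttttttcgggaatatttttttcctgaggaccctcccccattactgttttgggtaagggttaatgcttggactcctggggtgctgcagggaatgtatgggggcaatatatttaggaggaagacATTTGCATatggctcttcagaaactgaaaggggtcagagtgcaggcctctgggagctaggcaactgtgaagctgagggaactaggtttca

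Promoters were found for all 7 members, with a second start for Pax6 and Gpm6a. The GC box was found 5 times in the window of Map2, 4 times in that of Neurod1, 3 times in that of Sox1 and 2 times each in those of Tubb3 and Nes, while the windows of Pax6 and Gpm6a held no such letters. Of 32851 mouse promoter windows of the same length, 32.7% held a GC box. The letters TATAA on either strand, found in 22.8% of all windows, began 31 and 30 bases before the start of Tubb3 as 2 overlapping matches and 29 bases before that of Neurod1. Another match began 210 bases before the second start of Gpm6a. The octamer, found in 1.6% of all windows, began 90 bases before the first start of Gpm6a and overlaps E-box matches (CANNTG, found in 66.2% of windows) that begin at 91 and 85 bases. G and C made up 81.2% of the window of Map2 and 68.0% of that of Tubb3, against 44.4% in that of Gpm6a. The motifs were chosen with the sequences in view, and a match describes letters and not a site in use.

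Values are log2 signals, so a difference of 1 is a change of 2-fold, and no level of a gene can be set against that of another gene. Deposited values ran from 1.27 to 14.6 with no detection call, so it cannot be said which of them lie above background. Arrays of a group correlated with r between 0.991 and 0.998 over the 19938 genes, and replicate 3 of differentiated ES 129SV had the lowest array weight in limma (0.153). Without it, 5 of the 7 genes in place of 6 were called between differentiated adult and differentiated ES cells (Sox1 was lost), and the 6 called on differentiation of ES cells stayed 6 in number. The pluripotency list of 22 genes had a mean log2 level per array of 9.60 to 9.64 in differentiated adult and 9.11 to 9.16 in differentiated ES cells. In undifferentiated cells it was 10.8 in adult Stra8, 11.2 in ES Stra8, 10.8 to 10.9 in adult 129SV cells and 10.9 in ES 129SV. Of its 22 genes, 18 fell and 2 rose on differentiation of adult cells, and 19 fell on that of ES cells. The share of all genes called was 59.7% in adult and 55.2% in ES cells. The list of 22 measured fibroblast genes had a mean log2 level of 9.02 to 9.08 in differentiated adult, 8.54 to 8.63 in differentiated ES, 10.1 to 10.2 in adult Stra8, 9.35 to 9.42 in ES Stra8, 9.75 to 9.80 in adult 129SV cells and 10.5 in ES 129SV.

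**Figure D1:**
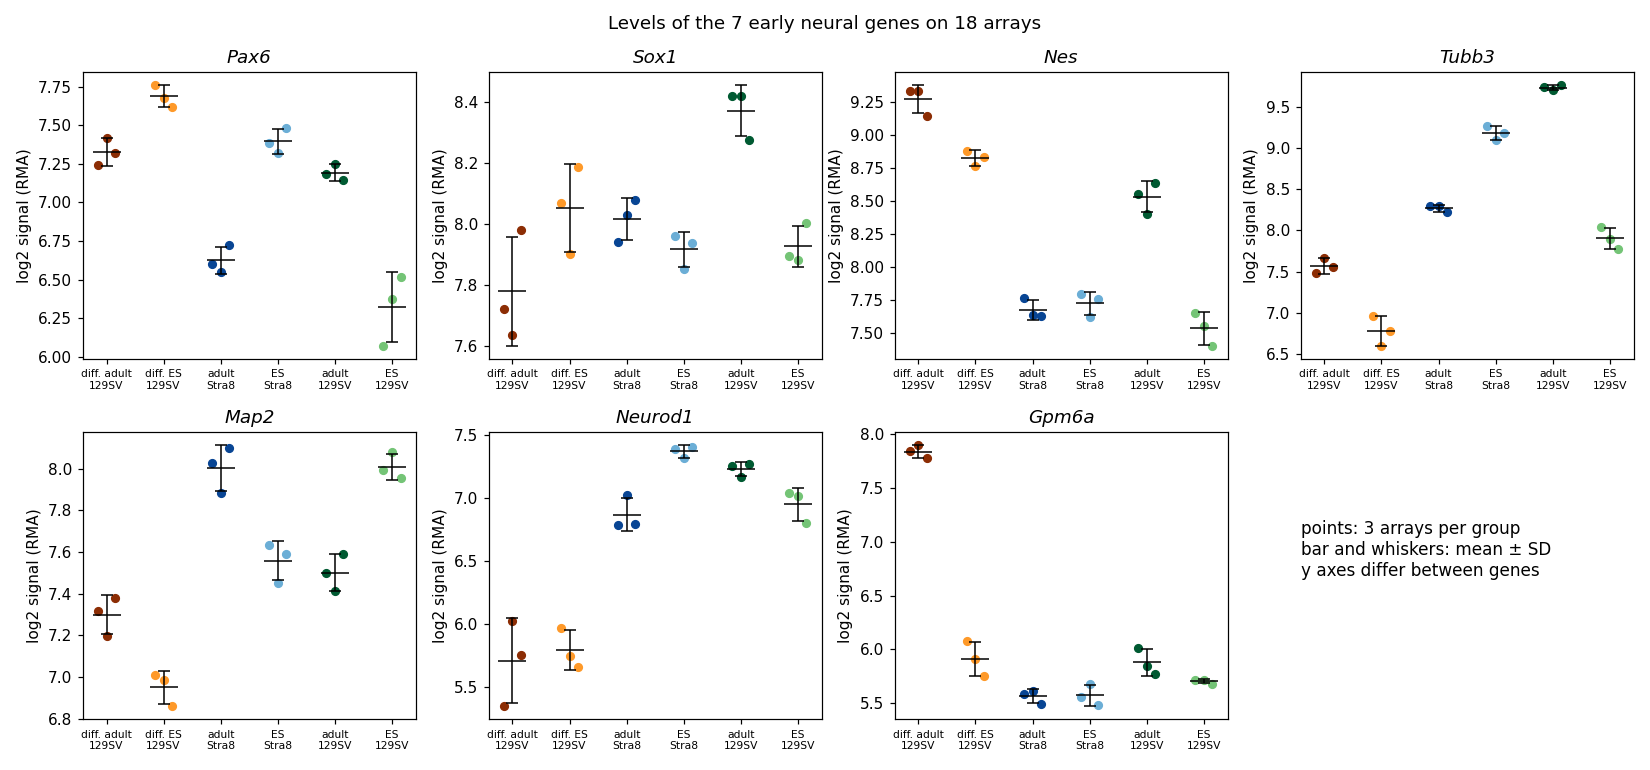
Deposited log2 signal (RMA) of each of the 7 genes in the 6 groups, with 3 arrays per group as points and the mean ± SD as bar and whiskers. Gpm6a is high in differentiated adult cells alone, Tubb3 is highest in adult 129SV and lowest in differentiated ES cells, and the axes differ between genes.

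The 7 genes did not move as a block. Nes and Gpm6a were highest in differentiated adult cells, Pax6 in differentiated ES cells, Tubb3 and Sox1 in undifferentiated adult 129SV cells, Neurod1 in undifferentiated ES Stra8 cells and Map2 in undifferentiated ES 129SV cells. Between the highest and the lowest group, the mean log2 level spanned 2.95 for Tubb3, 2.27 for Gpm6a, 1.74 for Nes, 1.66 for Neurod1, 1.37 for Pax6, 1.06 for Map2 and 0.59 for Sox1. Within groups the SD lay between 0.02 and 0.34, the highest being that of Neurod1 in differentiated adult cells. Over the 18 arrays Tubb3 and Neurod1 ran alike (r = 0.85), as did Nes and Gpm6a (r = 0.78), while Pax6 and Map2 ran against each other (r = -0.89), as did Nes and Map2 (r = -0.79). These correlations describe 18 arrays that share 6 groups and a platform, and the other 17 of the 21 pairs lay between -0.75 and 0.66. In cultures of mixed cells, a lower share of cells of a type and less RNA per cell cannot be told apart.

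Pax6, a paired-box factor of eye and forebrain, was lowest in ES 129SV cells. Its log2 levels were 7.24, 7.42 and 7.32 in differentiated adult and 7.76, 7.68 and 7.62 in differentiated ES cells. Without differentiation they were 6.60, 6.55 and 6.72 in adult Stra8 and 7.39, 7.32 and 7.48 in ES Stra8 cells, and 7.18, 7.25 and 7.15 in adult 129SV cells and 6.07, 6.37 and 6.52 in ES 129SV cells. ES Stra8, differentiated adult and adult 129SV cells followed each other with overlapping arrays, and the other steps in the order did not overlap. Differentiation raised Pax6 in ES cells by 1.37 ± 0.09 on the log2 scale (SE, as for all changes here; limma, adjusted p = 1.17e-09), which is 2.58-fold. In adult cells the change was 0.13 ± 0.09 (adjusted p = 0.228, 95% interval -0.06 to 0.33) and the arrays overlapped. The response to differentiation was lower in adult cells by a difference of -1.23 ± 0.13 (adjusted p = 1.04e-06).

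The origin of the cells went with Pax6 in opposite directions in the 2 backgrounds. Adult Stra8 cells were lower than ES Stra8 cells by -0.77 ± 0.09 (adjusted p = 8.68e-06), and adult 129SV cells were higher than ES 129SV cells by 0.87 ± 0.09 (adjusted p = 6.83e-07). The effect of origin differed between the backgrounds by -1.64 ± 0.13 (adjusted p = 2.59e-08). After differentiation adult cells were below ES cells by -0.36 ± 0.09 (adjusted p = 0.00622). In all 3 of these comparisons of adult with ES cells the arrays of the groups did not overlap. Of the 9 Pax genes measured, Pax6 was the gene called between adult and ES Stra8 cells, while 3 rose and the others were not called in adult 129SV cells. With arrays centred, or quantile normalised, 1 rose in 129SV. As deposited, 28.3% of all genes were called between adult and ES cells in Stra8 and 46.1% in 129SV.

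Sox1, a SoxB1 factor that marks neuroepithelium, varied least. Its log2 levels were 7.72, 7.64 and 7.98 in differentiated adult and 8.07, 7.90 and 8.19 in differentiated ES cells, and 7.94, 8.03 and 8.08 in adult Stra8 and 7.96, 7.85 and 7.94 in ES Stra8 cells. Adult 129SV cells had 8.42, 8.42 and 8.28, against 7.90, 7.88 and 8.0 in ES 129SV cells. Adult 129SV cells stood above every other group without overlap, and the 5 remaining groups formed a run in which each overlapped the next. Sox1 fell by 0.59 ± 0.09 on differentiation of adult cells (adjusted p = 1.61e-05), and its change was 0.12 ± 0.09 in ES cells (adjusted p = 0.249). That difference in response was -0.72 ± 0.12 (adjusted p = 0.000171). Adult 129SV cells were above ES 129SV cells by 0.44 ± 0.09 (adjusted p = 0.000461), while the change between adult and ES Stra8 cells was 0.10 ± 0.09 (adjusted p = 0.489).

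The difference of the origin effect for Sox1, -0.35 ± 0.12 (adjusted p = 0.0328), was lost without any of 8 single arrays (adjusted p = 0.0519 to 0.0808), with arrays centred on their medians (adjusted p = 0.0601) and with quantile normalisation (adjusted p = 0.0651). The lower level of Sox1 in differentiated adult than in differentiated ES cells (-0.27 ± 0.09, adjusted p = 0.0245) came with overlapping arrays and was lost when these groups were fitted alone (adjusted p = 0.164) and without any of 4 of the 6 arrays (adjusted p = 0.0600 to 0.129). Among its relatives, Sox2, which keeps pluripotency and neural progenitors, fell by 1.53 on differentiation of adult cells (adjusted p = 2.20e-09) and by 2.14 in ES cells (adjusted p = 2.99e-11). Sox21, a repressor that counters SoxB1 factors, rose by 0.49 in adult cells (adjusted p = 0.000265) and by 0.96 in ES cells (adjusted p = 1.44e-07). Of the 5 SoxB genes, Sox21 was the gene that rose and 4 fell on differentiation of adult cells, while 1 rose and 1 fell on that of ES cells. The share of all genes called was 59.7% in adult and 55.2% in ES cells.

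Neurod1, which promotes neuronal fate, was low in both differentiated groups. On the log2 scale it read 5.35, 6.03 and 5.76 in differentiated adult and 5.97, 5.75 and 5.66 in differentiated ES cells. Among undifferentiated cells they were 6.79, 7.02 and 6.79 in adult Stra8 and 7.39, 7.31 and 7.41 in ES Stra8 cells, and 7.26, 7.16 and 7.27 in adult 129SV cells and 7.04, 7.01 and 6.80 in ES 129SV cells. Every undifferentiated array lay above every differentiated one. Neurod1 fell on differentiation by 1.52 ± 0.13 in adult cells (adjusted p = 2.31e-08), a 2.87-fold change, and by 1.16 ± 0.13 in ES cells (adjusted p = 6.91e-07). The difference between these responses was -0.36 ± 0.18 and did not pass (adjusted p = 0.123). Without replicate 2 of differentiated adult cells it was -0.52 (adjusted p = 0.0166), and that array was the highest of its group.

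Adult Stra8 cells had less Neurod1 than ES Stra8 cells, by -0.50 ± 0.13 (adjusted p = 0.00755). In the 129SV background the change was 0.28 ± 0.13, and although all 3 adult arrays were above the 3 ES arrays, it did not pass (adjusted p = 0.0924). The effect of origin differed between backgrounds by -0.78 ± 0.18 (adjusted p = 0.00219). After differentiation the change between adult and ES cells was -0.08 ± 0.13 (adjusted p = 0.676, 95% interval -0.36 to 0.19). Of 15 measured genes of pancreatic and gut endocrine cells, where Neurod1 and Pax6 also act, 1 rose and 5 fell on differentiation of adult cells, and 5 rose and 2 fell on that of ES cells. In ES cells 3 rose and 2 fell with arrays centred, and 3 rose and 3 fell with quantile normalisation, while in adult cells 1 rose and 7 fell on either scale. As deposited, 59.7% of all genes were called on differentiation of adult cells and 55.2% on that of ES cells.

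Nes, the filament of neural progenitors, rose on differentiation of both cell types, and kept both calls under every alternative run. Its log2 levels were 9.33, 9.33 and 9.15 in differentiated adult and 8.88, 8.76 and 8.83 in differentiated ES cells. They were 7.76, 7.63 and 7.63 in adult Stra8 and 7.79, 7.62 and 7.76 in ES Stra8 cells, and 8.55, 8.40 and 8.64 in adult 129SV cells and 7.65, 7.55 and 7.40 in ES 129SV cells. Differentiated adult, differentiated ES and adult 129SV cells followed each other without overlap, and the 3 groups below them overlapped. The rise was 0.74 ± 0.08 in adult cells (adjusted p = 4.39e-07) and 1.29 ± 0.08 in ES cells (adjusted p = 4.10e-10). The difference of -0.55 ± 0.11 between these responses passed the test (adjusted p = 0.000846). Adult 129SV cells already had more Nes than ES 129SV cells, by 1.00 ± 0.08 (adjusted p = 2.89e-08), and this comparison shares its undifferentiated arrays with both responses.

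In the Stra8 background the change of Nes between adult and ES cells was -0.05 ± 0.08 (adjusted p = 0.748, 95% interval -0.22 to 0.12). The effect of origin differed between backgrounds by -1.05 ± 0.11 (adjusted p = 1.04e-06). After differentiation adult cells were above ES cells by 0.45 ± 0.08 (adjusted p = 0.000378). Of 10 intermediate filaments measured, Nes included, 4 rose and 5 fell on differentiation of adult cells (median -0.18, against -0.08 for all genes), and 2 rose and 5 fell on that of ES cells (median -0.21, against 0.05). In adult cells 2 rose and 6 fell with arrays centred, and 3 rose and 6 fell with quantile normalisation. As deposited, 59.7% of all genes were called on differentiation of adult cells and 55.2% on differentiation of ES cells. Desmin (Des), the filament of muscle, rose by 1.63 ± 0.08 in adult cells (adjusted p = 1.94e-11) and by 1.14 ± 0.08 in ES cells (adjusted p = 1.74e-09). Those with the largest falls were Ina (-3.32 ± 0.05) and Nefh (-2.39 ± 0.06) in adult cells and Ina (-3.23 ± 0.05) and Nefl (-1.88 ± 0.12) in ES cells, which are filaments of neurons. Nes is also found in muscle and vessel precursors, and of 13 measured endothelial and muscle genes 6 rose and 3 fell in adult cells and 5 rose and 2 fell in ES cells. With arrays centred, as with quantile normalisation, 5 rose and 5 fell in adult and 5 rose and 3 fell in ES cells.

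Tubb3, the neuronal beta-tubulin, had the widest range of the members and its lowest levels after differentiation. Its log2 levels were 7.48, 7.67 and 7.55 in differentiated adult and 6.96, 6.60 and 6.77 in differentiated ES cells. They were 8.29, 8.30 and 8.22 in adult Stra8 and 9.27, 9.10 and 9.18 in ES Stra8 cells, and 9.74, 9.70 and 9.76 in adult 129SV cells and 8.04, 7.90 and 7.78 in ES 129SV cells. No group overlapped its neighbour in the order, which ran from adult 129SV through ES Stra8, adult Stra8, ES 129SV and differentiated adult to differentiated ES cells. Differentiation lowered Tubb3 by -2.16 ± 0.09 in adult cells (adjusted p = 1.38e-12), a 4.48-fold change, and by -1.12 ± 0.09 in ES cells (adjusted p = 5.23e-09), a 2.18-fold change. The difference between these responses was -1.04 ± 0.12. It contains the difference between adult and ES 129SV cells for which Tubb3 was singled out earlier, so it is given without a test. The fall in adult cells starts from the adult 129SV arrays behind that choice, so its p-value is not free of it.

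The adult cells of the 129SV background had more Tubb3 than ES cells, by 1.83 ± 0.09, and this difference and that of the origin effects (-2.74 ± 0.12) are given without a test because Tubb3 was singled out for them earlier. In the Stra8 background adult cells had less Tubb3 than ES cells, by -0.91 ± 0.09, a 1.88-fold change. After differentiation adult cells were again above ES cells, by 0.79 ± 0.09 (adjusted p = 2.24e-06). Between backgrounds, ES Stra8 cells had more Tubb3 than ES 129SV cells, by 1.28 ± 0.09. Adult Stra8 cells had less than adult 129SV cells, by -1.46 ± 0.09. The difference of the origin effects is the gap between these changes, and equally that between the adult minus ES changes in Stra8 and 129SV. The Stra8 change and the background changes are therefore also given without a test. In each of these 5 comparisons the arrays of the compared groups did not overlap. Tests of Tubb3 on differentiation also use arrays behind the earlier choice of this gene, so their p-values are not free of it.

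Most other beta-tubulins also fell on differentiation, each by less than Tubb3 in adult cells, while Tubb2b and Tubb6 had the larger falls in ES cells. Of the 7 measured, all 7 fell in adult cells (median -0.49, against -0.08 for all genes), or 6 with quantile normalisation. Of all genes 59.7% were called in adult cells (6428 lower, 5478 higher) and 55.2% in ES cells (5452 lower, 5553 higher). In ES cells 5 fell and 1, Tubb4a, rose (0.26 ± 0.09, adjusted p = 0.0151), and the rise was not called under either other scaling. Tubb2b, an isotype of developing neurons, fell by 1.15 ± 0.08 in adult cells (adjusted p = 2.12e-09) and by 1.52 ± 0.08 in ES cells (adjusted p = 5.90e-11). Tubb6, an isotype found widely outside neurons, fell by 0.55 ± 0.06 in adult cells (adjusted p = 5.86e-07) and by 1.48 ± 0.06 in ES cells (adjusted p = 2.31e-12). Between undifferentiated groups the isotypes parted: Tubb2b was lower in adult than in ES Stra8 cells by -0.86 ± 0.08 (adjusted p = 7.43e-07) and changed by 0.01 ± 0.08 between adult and ES 129SV cells (adjusted p = 0.938). Tubb5, a main isotype of dividing cells, was lower in adult than in ES Stra8 cells by -0.23 ± 0.05 (adjusted p = 0.00200), and its change between adult and ES 129SV cells was -0.10 ± 0.05 (adjusted p = 0.119).

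**Figure D2:**
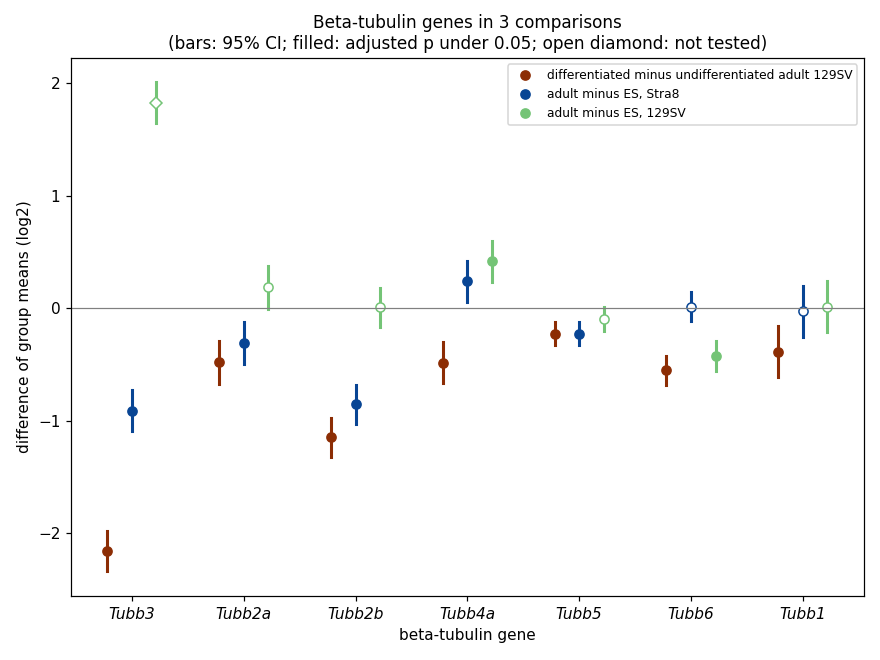
Difference of group means (log2) with 95% confidence interval for the 7 measured beta-tubulin genes in 3 comparisons, filled where the adjusted p is under 0.05. The open diamond is the 129SV difference of Tubb3. Tubb3 lies at -2.16 on differentiation of adult 129SV cells, at -0.91 between adult and ES Stra8 cells and at 1.83 between adult and ES 129SV cells. Each is farther from 0 than the other 6 genes, but in Stra8 Tubb2b lies close, at -0.86 with an overlapping interval. Tubb3 was singled out earlier for the 129SV difference and for that of the origin effects, so its filled Stra8 point is not read as a test.

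Alpha-tubulins and tubulin-folding factors were described as a list of 13 measured genes. Of them 7 fell between adult and ES Stra8 cells and the other 6 were not called, while 8 rose and 2 fell between adult and ES 129SV cells (medians -0.18 and 0.24, against -0.00 and 0.06 for all genes). With arrays centred 5 fell in Stra8 and 5 rose in 129SV, and with quantile normalisation 3 fell and 6 rose. On differentiation 3 rose and 8 fell in adult cells, and 1 rose and 10 fell in ES cells. The share of all genes called was 28.3% between adult and ES Stra8 cells and 46.1% between adult and ES 129SV cells. On differentiation it was 59.7% in adult and 55.2% in ES cells.

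Map2, the microtubule-binding protein of dendrites, ran opposite to Pax6 among undifferentiated cells. Its log2 levels were 7.32, 7.20 and 7.38 in differentiated adult and 7.01, 6.99 and 6.86 in differentiated ES cells. In undifferentiated Stra8 cells they were 8.03, 7.88 and 8.10 for adult and 7.63, 7.45 and 7.59 for ES cells, and in undifferentiated 129SV cells 7.50, 7.41 and 7.59 for adult and 7.99, 8.08 and 7.96 for ES cells. ES 129SV and adult Stra8 cells overlapped at the top, ES Stra8 and adult 129SV cells overlapped below them, and each differentiated group lay lower without overlap. Adult Stra8 cells had more Map2 than ES Stra8 cells, by 0.44 ± 0.07 (adjusted p = 0.000246), and adult 129SV cells less than ES 129SV cells, by -0.51 ± 0.07 (adjusted p = 2.70e-05). The effect of origin differed between backgrounds by 0.95 ± 0.11 (adjusted p = 1.33e-06).

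Differentiation lowered Map2 by -1.06 ± 0.07 in ES cells (adjusted p = 2.09e-09), and the response differed between adult and ES cells by 0.85 ± 0.11 (adjusted p = 5.88e-06). The fall in adult cells, -0.20 ± 0.07 (adjusted p = 0.0274), was lost when these groups were fitted alone (adjusted p = 0.0604) and without replicate 1 or 3 of adult 129SV or replicate 2 of differentiated adult cells (adjusted p = 0.0550 to 0.129). After differentiation adult cells were above ES cells by 0.35 ± 0.07 (adjusted p = 0.00172). The 22 fibroblast genes had their highest mean level in ES 129SV, followed by adult Stra8, and their lowest in differentiated ES cells, which is also so for Map2. All 22 were higher in adult than in ES Stra8 cells, where 28.3% of all genes were called. In adult compared with ES 129SV cells 3 were higher and 15 lower, where 46.1% of all genes were called. The part of the fibroblast genes in the values of Map2 was not tested. Of 17 microtubule-associated proteins measured, 4 rose and 12 fell on differentiation of adult cells, and 4 rose and 11 fell on that of ES cells. The medians were -0.54 and -0.41, against -0.08 and 0.05 for all genes, of which 59.7% and 55.2% were called. Stmn1, a microtubule destabiliser of dividing cells and neurons, fell by 2.33 ± 0.07 in adult cells (adjusted p = 3.81e-14) and by 1.93 ± 0.07 in ES cells (adjusted p = 2.88e-13). Dclk1, a doublecortin-like kinase, was higher in adult than in ES Stra8 cells by 0.79 ± 0.06 (adjusted p = 5.80e-08) and lower in adult than in ES 129SV cells by -1.37 ± 0.06 (adjusted p = 1.31e-11).

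Gpm6a, the neurite membrane glycoprotein, set differentiated adult cells apart from the other 5 groups. On the log2 scale its levels were 7.84, 7.90 and 7.78 in differentiated adult and 6.07, 5.91 and 5.75 in differentiated ES cells. They were 5.59, 5.61 and 5.50 in adult Stra8 and 5.56, 5.68 and 5.48 in ES Stra8 cells, and 6.02, 5.85 and 5.77 in adult 129SV cells and 5.71, 5.72 and 5.68 in ES 129SV cells. All 3 differentiated adult arrays lay above each of the other 15 arrays. Differentiation raised Gpm6a by 1.96 ± 0.08 in adult cells (adjusted p = 2.41e-12), which is 3.89-fold. In ES cells the change was 0.21 ± 0.08 (adjusted p = 0.0396), and it was lost with arrays centred (0.08, adjusted p = 0.442), with quantile normalisation (0.07, adjusted p = 0.569), with a fit to these groups alone (adjusted p = 0.103) and without any one of the arrays compared except replicate 3 of differentiated ES cells (adjusted p = 0.0701 to 0.208). The difference between these responses was 1.75 ± 0.11 (adjusted p = 3.67e-09).

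Differentiated adult cells were above differentiated ES cells in Gpm6a by 1.93 ± 0.08 (adjusted p = 6.05e-11). Between undifferentiated adult and ES cells the change was -0.01 ± 0.08 in Stra8 (adjusted p = 0.978) and 0.17 ± 0.08 in 129SV (adjusted p = 0.0916) (95% intervals -0.18 to 0.17 in Stra8 and 0.00 to 0.35 in 129SV). Its paralog Gpm6b, also expressed in brain, went otherwise. Gpm6b fell by 2.22 ± 0.10 on differentiation of ES cells (adjusted p = 8.53e-12), and its change in adult cells was -0.05 ± 0.10 (adjusted p = 0.680). Gpm6b was higher in adult than in ES Stra8 cells by 0.79 ± 0.10 (adjusted p = 1.97e-05) and lower in adult than in ES 129SV cells by -1.93 ± 0.10 (adjusted p = 1.98e-10). Its mean level ran in the same order over the 4 undifferentiated groups as that of the fibroblast genes except that ES Stra8 lay above adult 129SV cells.

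The first question was how adult and ES cells differ before differentiation, in each background. Of the 6 genes other than Tubb3, Map2 was called higher and Pax6 and Neurod1 lower between adult and ES Stra8 cells. In that comparison 28.3% of all genes were called. In adult compared with ES 129SV cells 4 of the 6 genes other than Tubb3 were called, with Pax6, Sox1 and Nes higher and Map2 lower, with a background of 46.1% of all genes. Of the 6 origin effects other than that of Tubb3, 5 differed between Stra8 and 129SV, lower for Pax6, Sox1, Nes and Neurod1 and higher for Map2, with 43.1% of all genes called in that test. The median over the 7 genes was -0.05 in Stra8 (-0.00 for all genes) and 0.44 in 129SV (0.06 for all genes). Nothing is read from these counts about the 7 genes as a set.

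**Figure D3:**
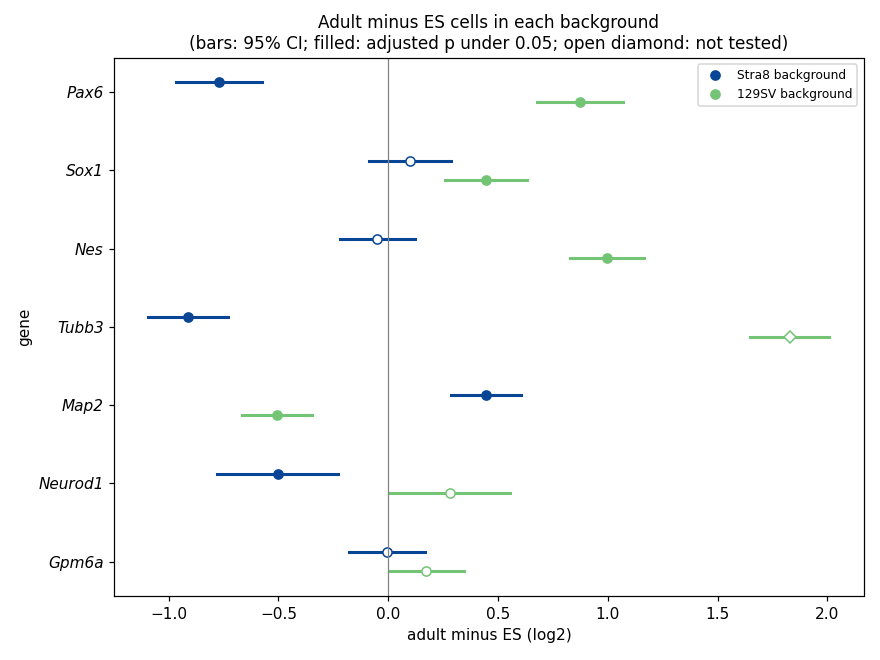
Adult minus ES difference (log2) with 95% confidence interval for each of the 7 genes in the Stra8 and 129SV backgrounds, filled where the adjusted p is under 0.05. Pax6 and Map2 were called in both backgrounds with opposite signs, Gpm6a was called in neither, and the open diamond is Tubb3 in 129SV, which is not tested. The filled point of Tubb3 in Stra8 is not read as a test either.

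The pathway lists went both ways in these comparisons. Of all genes, 28.3% were called between adult and ES Stra8 cells and 46.1% between adult and ES 129SV cells, and nothing is read from the list counts. Of 32 measured neural progenitor genes, 7 rose, 3 fell and 22 were not called in adult compared with ES Stra8 cells. In adult compared with ES 129SV cells 3 rose, 5 fell and 24 were not called. Zic2, a zinc finger factor of early neural plate, was higher by 0.88 ± 0.08 (adjusted p = 2.76e-07) in adult Stra8 cells, and Otx2, a factor of epiblast and forebrain, was lower by -0.67 ± 0.07 (adjusted p = 9.19e-07) in adult 129SV cells. Of 33 proneural and neuronal genes, 5 rose, 5 fell and 23 were not called in Stra8, and 11 rose, 4 fell and 18 were not called in 129SV. Nefh, the heavy neurofilament, was lower in adult than in ES Stra8 cells by -0.73 ± 0.06 (adjusted p = 2.99e-07) and higher in adult than in ES 129SV cells by 1.48 ± 0.06 (adjusted p = 1.52e-11). Elavl3, a neuronal RNA-binding protein, was lower by -0.89 ± 0.09 (adjusted p = 1.24e-06) in Stra8 and higher by 1.14 ± 0.09 (adjusted p = 1.83e-08) in 129SV. Nefl, the light neurofilament, was higher by 0.50 ± 0.12 (adjusted p = 0.00433) in Stra8 and lower by -1.13 ± 0.12 (adjusted p = 6.27e-07) in 129SV. Nefh and Elavl3 thus had the signs of Tubb3, and Nefl those of Map2.

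The second question was what differentiation does to each cell type of the 129SV background. In adult cells 6 of the 7 genes were called, with Nes and Gpm6a higher and Sox1, Tubb3, Map2 and Neurod1 lower, where 59.7% of all genes were called. The call of Map2 there was lost in a fit to these groups alone. That of Tubb3 starts from adult 129SV arrays behind the earlier choice of this gene, so it is not free of that choice. In ES cells 6 of 7 were called, with Pax6, Nes and Gpm6a higher and Tubb3, Map2 and Neurod1 lower, where 55.2% of all genes were called. With arrays centred, as with quantile normalisation, Gpm6a lost its call in ES cells, which left 2 genes higher and 3 lower. The response of adult cells, set against that of ES cells, was called higher for Map2 and Gpm6a. It was called lower for Pax6, Sox1 and Nes, with 45.7% of all genes called in that test. The difference of the Tubb3 responses is not tested here. Between differentiated adult and differentiated ES cells 6 of 7 were called, where 32.2% of all genes were called. Nes, Tubb3, Map2 and Gpm6a were higher and Pax6 and Sox1 lower in adult cells, and the call of Sox1 was lost in a fit to these groups alone. The 2 responses share no arrays, but each shares its differentiated arrays with the comparison of differentiated cells.

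**Figure D4:**
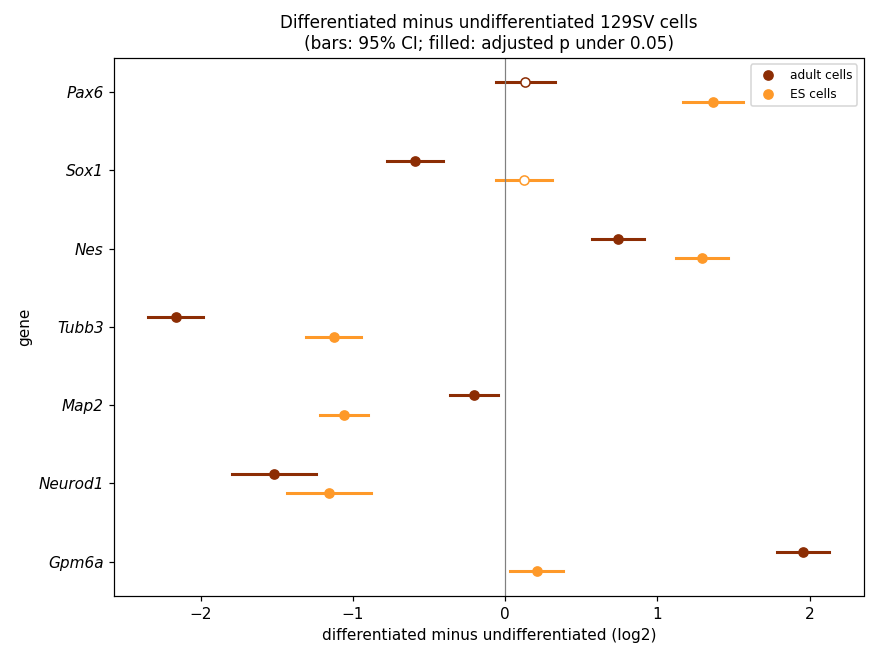
Differentiated minus undifferentiated difference (log2) with 95% confidence interval for each of the 7 genes in adult and ES 129SV cells, filled where the adjusted p is under 0.05. Nes lies above 0 and Tubb3, Map2 and Neurod1 below 0 in both cell types, and Gpm6a lies at 1.96 in adult and 0.21 in ES cells.

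Among the neuronal genes called on differentiation, falls outnumbered rises in both cell types. Of 33 measured, 12 were not called in adult and 17 in ES cells, where 59.7% and 55.2% of all genes were called. Of the called ones, 5 rose and 16 fell in adult cells, and 3 rose and 13 fell in ES cells. The median over the 33 was -0.21 in adult cells (-0.08 for all genes) and -0.07 in ES cells (0.05 for all genes). With arrays centred, as with quantile normalisation, 3 rose and 18 fell in adult cells, and 1 rose and 14 fell in ES cells. Stmn2, which acts on microtubules of growing axons, fell by 2.70 ± 0.05 in adult (adjusted p = 5.28e-16) and by 2.91 ± 0.05 in ES cells (adjusted p = 1.43e-16). Crmp1, a mediator of axon guidance, fell by 2.67 ± 0.11 in adult (adjusted p = 1.87e-12) and by 2.40 ± 0.11 in ES cells (adjusted p = 6.46e-12). Ncam1, a neural adhesion molecule, was higher in differentiated adult than in differentiated ES cells by 0.78 ± 0.06 (adjusted p = 2.94e-08). Of 32 neural progenitor genes, 5 rose and 13 fell in adult and 4 rose and 10 fell in ES cells. Plagl1, an imprinted zinc finger gene of progenitors and many other tissues, rose by 3.32 ± 0.07 in adult (adjusted p = 6.83e-16) and by 2.85 ± 0.07 in ES cells (adjusted p = 2.72e-15), while Otx2 fell by 1.67 ± 0.07 in adult (adjusted p = 4.70e-12) and by 3.20 ± 0.07 in ES cells (adjusted p = 1.37e-15).

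Signals that hold neural fate in check were read as lists too. On differentiation 59.7% of all genes were called in adult and 55.2% in ES cells, and nothing is read from the list counts. Rest, the repressor of neuronal genes outside neurons, fell by 1.32 ± 0.05 in adult (adjusted p = 1.45e-12) and by 1.34 ± 0.05 in ES cells (adjusted p = 1.02e-12). Of Rest and its corepressors, 4 of 10 rose and 4 fell in adult, and 3 rose and 7 fell in ES cells. Of 18 neural inducers and inhibitors, 5 rose and 10 fell in adult and 7 rose and 5 fell in ES cells. Bmp2, which opposes neural induction, rose by 4.05 ± 0.12 in adult (adjusted p = 4.38e-14) and by 2.52 ± 0.12 in ES cells (adjusted p = 1.27e-11). The antagonists of such signals moved in both directions in adult cells: noggin (Nog) rose by 1.96 ± 0.11 (adjusted p = 6.45e-11), follistatin (Fst) by 2.11 ± 0.07 (adjusted p = 9.25e-14), and gremlin (Grem1) fell by 3.45 ± 0.11 (adjusted p = 1.68e-13). Grem1 fell by 4.94 ± 0.11 in ES cells (adjusted p = 1.66e-15), and it is also a product of fibroblasts, whose list had 17 of 22 genes lower in adult and 19 of 22 lower in ES cells. The part of the fibroblast genes in these values was not tested. Of 14 measured genes of neural crest and glia, 4 rose and 6 fell in adult and 5 rose and 7 fell in ES cells, and of 8 macrophage and blood genes 2 rose and 6 fell in each cell type.

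The scale of the arrays bears on these counts. With each array centred on its own median, the median of all genes moved by -0.13 in the comparison of differentiated with undifferentiated ES cells, and the changes of the 7 genes there move by the same amount. Of all calls, 37.1% were then higher in differentiated ES cells, against 50.5% as deposited. The share was 35.9% against 46% in adult cells, and 41.5% against 51.6% for ES Stra8 compared with ES 129SV cells. No member and no gene of the lists was called in opposite directions between the deposited scale and either other one.

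The third question was how the backgrounds differ within a cell type. Between adult Stra8 and adult 129SV cells all 6 genes other than Tubb3 were called, Map2 higher and the others lower, where 51.0% of all genes were called. Of the same 6 genes, Pax6 and Neurod1 were called higher and Map2 lower between ES Stra8 and ES 129SV cells, where 41.4% of all genes were called. In adult cells the changes were -0.57 ± 0.09 for Pax6 (adjusted p = 6.06e-05), -0.86 ± 0.08 for Nes (adjusted p = 1.42e-07) and 0.50 ± 0.07 for Map2 (adjusted p = 2.52e-05). Smaller ones in the same cells were -0.31 ± 0.08 for Gpm6a (adjusted p = 0.00387), -0.36 ± 0.09 for Sox1 (adjusted p = 0.00263) and -0.36 ± 0.13 for Neurod1 (adjusted p = 0.0286), the last lost without replicate 1 or 3 of either group (adjusted p = 0.0687 to 0.0927). In ES cells Pax6 was higher in Stra8 by 1.07 ± 0.09 (adjusted p = 6.00e-08), Neurod1 by 0.42 ± 0.13 (adjusted p = 0.0152) and Map2 lower by -0.45 ± 0.07 (adjusted p = 0.000102). The change of Nes, 0.19 ± 0.08, did not pass (adjusted p = 0.0722). These comparisons share their arrays with those of adult and ES cells above.

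The genes whose levels ran most like each member were sought among 5492 genes (5493 for Sox1) whose group means spanned at least 1 on the log2 scale. The correlations describe 18 arrays in 6 groups. Nearest to Tubb3 were Alyref, an adaptor of mRNA export (r = 0.991), Urb2, named for ribosome biogenesis in yeast (0.989), and the small nucleolar RNA Snord52 (0.987), and no neuronal gene was among these 3. Nearest to Neurod1 were Nphs1, the nephrin of kidney podocytes (0.978), Stmn1 (0.978) and Pisd, an enzyme of phospholipid synthesis (0.975). Map2 ran with the extracellular matrix genes Ccbe1 (0.974) and Lox (0.968), a collagen cross-linker, and with the metalloprotease Adam12 (0.961). Nes ran with the actin-binding Cotl1 (0.986), Fam167a (0.979) and Atn1 (0.975). Pax6 ran with Fam193b (0.932), the epithelial splicing factor Esrp2 (0.912) and Eps8l2 (0.892). Gpm6a ran with the urea transporter Slc14a1 (0.976), the signalling regulator Rgs7 (0.972) and the glycosyltransferase Galnt2 (0.970). For Gpm6a 1 group stands apart, and Spearman's rho was 0.664 to 0.899. Sox1 had the weakest likeness, with Mt4 (0.880), Krt9 (0.849) and Foxn4 (0.836), where Spearman's rho was 0.717, 0.564 and 0.637. Without the 2 arrays of most distant Sox1 level r was 0.753, 0.679 and 0.651.

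The positions of the members add a regional pattern. Tubb3 lies at chr8:123411553-123422015, Gpm6a at chr8:54779434-55060878 and Sox1 at chr8:12395519-12399555 in RefSeq, build GRCm38.p6. The others are Map2 at chr1:66175202-66442583, Pax6 at chr2:105668896-105698410, Neurod1 at chr2:79452637-79456636 and Nes at chr3:87971093-87980451. The 955 measured genes of chromosome 8 had a median change of -0.10 between adult and ES Stra8 cells (-0.00 for all genes), the lowest of 20 chromosomes, with 7.33% called higher and 32.7% lower. Between adult and ES 129SV cells their median was 0.18 (0.06 for all genes), with 43.5% called higher and 11.5% lower, and after differentiation it was 0.19 (-0.03 for all genes), with 48.1% higher and 4.92% lower. Chromosome 11, which holds no member, stood next to it with medians of -0.07, 0.19 and 0.17. The 1122 genes of chromosome 1, that of Map2, had a median of 0.15 between adult and ES Stra8 cells, the highest of 20, with 38.1% called higher and 2.05% lower.

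**Figure D5:**
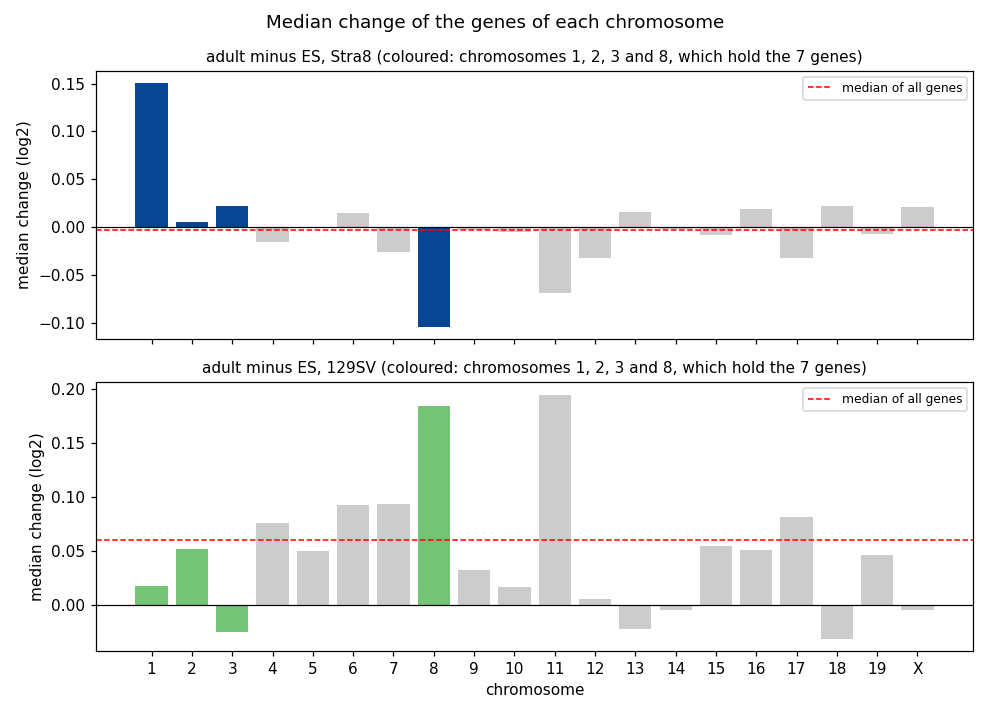
Median change (log2) of the measured genes of each chromosome between adult and ES cells, in the Stra8 and the 129SV background, with the median of all genes as a dashed line. Chromosome 1 is highest (0.15) and chromosome 8 lowest (-0.10) in Stra8, and chromosomes 8 (0.18) and 11 (0.19) are highest in 129SV.

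With quantile normalisation the median of chromosome 8 was -0.08 in Stra8 (0.01 for all genes) and 0.17 in 129SV (0.04 for all genes), and that of chromosome 1 was 0.17 in Stra8. Tubb3 had the sign of the chromosome 8 median in each of these comparisons (-0.91 in Stra8, 1.83 in 129SV, 0.79 after differentiation), and its changes were larger in size than the medians. Map2 had the sign of the chromosome 1 median in Stra8. In 129SV it changed by -0.51 against a median of 0.02, and after differentiation by 0.35 against -0.05. Gpm6a, also on chromosome 8, was not called in the comparisons of undifferentiated adult with ES cells. Sox1, the third member there, changed by 0.10 in Stra8 (not called), was higher by 0.44 in 129SV and was lower by -0.27 after differentiation, where the chromosome's median was 0.19. Copy number was not measured here, and its part in these values was not tested. Of the 3 measured genes on either side of Tubb3, Def8, Afg3l1 and Spire2 were called with the signs of Tubb3 in both backgrounds. Def8, the next gene, changed by -0.68 ± 0.08 between adult and ES Stra8 cells (adjusted p = 5.67e-06) and by 0.71 ± 0.08 in 129SV (adjusted p = 1.02e-06). Dbndd1 was called in 129SV (0.37 ± 0.09, adjusted p = 0.00202), and Mc1r and Tcf25 in neither background. On differentiation of adult cells, Spire2, an actin nucleator, fell by 1.04 ± 0.08 (adjusted p = 4.56e-09) and Def8 by 0.58 ± 0.08 (adjusted p = 5.86e-06). Of the 6 neighbours of Gpm6a, Hpgd, an enzyme of prostaglandin breakdown, rose on differentiation of adult cells (1.00 ± 0.12, adjusted p = 1.34e-06), as it did in ES cells (1.06 ± 0.12, adjusted p = 7.60e-07).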

How the data were processed

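Per the labels' protocols, the authors extracted total RNA with Trizol, treated it with DNase I and put biotin on 300 ng of it. The deposited values are log2 signals, and the submitters' processing notes name RMA and Expression Console of Affymetrix without versions. Whether all 18 arrays were processed together is not given in the sources used here. RMA corrects background, equalises the arrays and summarises probes, which compresses small signals. The values were used as deposited. Of 35556 probe sets, 21789 have 1 gene symbol in the platform annotation, 1621 have several and 12146 have none, and those with several or none were left out. For 999 genes with more than 1 probe set the highest mean over the arrays was taken. RefSeq entries (GRCm38.p6) were found for 19856 genes.

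A mean per group was fitted with limma 3.58.1 (lmFit, eBayes) in R 4.3.3 to all 18 arrays, which left 12 residual degrees of freedom beside 3.78 prior ones. A call is an adjusted p below 0.05 (Benjamini-Hochberg within each of 7 comparisons of group pairs and 2 differences of effects, over 19938 genes). The fit was tested on simulated data. Named beside the 7 members are all measured beta-tubulins, SoxB and Gpm6 genes, up to 4 called genes per list and comparison with the largest change, the 3 genes most like each member and the 3 neighbours on either side. The members and the 18 lists were chosen with earlier results of these data known. Samples with the same replicate number deviated together in every pair only between differentiated adult and differentiated ES cells (r = 0.153, 0.144 and 0.442 over genes), and there the replicate block changed no call of a member. Alternatives were a filter on dim genes (highest group mean under 7.29, which left all 7 members in), fits to the compared groups alone, centred or quantile normalised arrays, array weights, every probe set, an intensity trend, the replicate block and leaving out each array. Chromosome medians over all chromosomes, and without dim genes, were added after seeing the data. With 3 arrays in a group, their number sets the precision.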

Additional observations from a re-analysis of the deposited data

Results flagged for a closer look

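For 5 genes the difference between adult and ES cells was not the same in the 2 backgrounds by the test of the difference itself. Stra8 minus 129SV, it was -1.64 for Pax6, -0.35 for Sox1, -1.05 for Nes, 0.95 for Map2 and -0.78 for Neurod1 on the log2 scale. For Tubb3 it was -2.74, given as a description because this gene was singled out for it earlier. For Pax6, Sox1, Nes, Map2 and Gpm6a the response to differentiation also differed between adult and ES cells. Adult minus ES, it was -1.23 for Pax6, -0.72 for Sox1, -0.55 for Nes, 0.85 for Map2 and 1.75 for Gpm6a. For Tubb3 it was -1.04, given as a description for the same reason.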

How the results depend on the processing

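No change of a single member reversed its sign past the threshold under any alternative. Leaving out 1 array left 433 results on the same side of the threshold, while 25 lost and 4 gained a call, and the other alternatives left 491, lost 8 and gained 5. These tallies include the comparisons of Tubb3 that are given without a test. The lost calls were those of Gpm6a (differentiation of ES cells), Map2 (differentiation of adult cells), Neurod1 (Stra8 against 129SV) and Sox1. Sox1 lost the difference of origin effects without replicate 1 or 3 of ES Stra8 or replicate 1 or 2 of adult Stra8, adult 129SV or ES 129SV cells, and the call between differentiated cells without replicate 1 or 2 of adult or 1 or 3 of ES cells. Gained calls were those of Nes between ES Stra8 and ES 129SV cells with dim genes left out, with array weights and without ES Stra8 replicate 2 or ES 129SV replicate 1 (adjusted p = 0.0247 to 0.0441), Neurod1 between adult and ES 129SV cells in a fit of these groups (0.0192), Sox1 on differentiation of ES cells with array weights (0.0430), Gpm6a between adult and ES 129SV cells without adult 129SV replicate 3 (0.0487), and Neurod1 in the difference of responses. Neurod1 between ES Stra8 and ES 129SV cells was lost without ES 129SV replicate 3 (0.0762). With the replicate block Gpm6a between adult and ES 129SV cells passed at 0.17 (adjusted p = 0.0410), and the block changed no other member's call. Its gene counts stayed within 1.5 times, as in 9220 genes between adult and ES 129SV cells, against 9196. Over all genes, 3537 were called between differentiated adult and ES cells in a fit of these 6 arrays, against 6419, and fewer samples enter that fit. With array weights 8690 were called between adult and ES Stra8 cells, against 5638, and the cause was not tested. No detection call was at hand, so members under the median of all values, such as Gpm6a outside differentiated adult cells, have an unknown distance from background.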
